A study of Mus musculus with 36 samples.

Results

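The 7 genes described here encode neurotrophins, their receptors and 1 neurotrophin-induced secreted protein: Bdnf, Ntf3, Ntrk2, Ntrk3, Ngfr, Sort1 and Vgf. They were chosen by name, as the receptors addressed by the compound under study, their ligands and closely tied genes, and the rule itself uses no measured value. All 7 are among the 55421 genes of the deposited count table, and all 7 were among the 19478 genes that passed a filter on low counts and were tested. The RNA came from 18 mice. The wild-type (WT) animals were C57BL/6, and the T41B animals expressed human APP bearing the London and Swedish mutations from a Thy1 promoter cassette, so that the transgene follows Thy1 rather than the App gene's own control. Oral dosing with BD10-2, which partially activates TrkB and TrkC, or with its vehicle lasted 3 months and began at an age of 13 months, ending at 16. A slice of the right hippocampus then received either theta-burst stimulation, 3 trains of 10 bursts with 4 pulses each at 100 Hz and 200 ms between bursts, or a sham procedure, and was frozen directly afterwards. Every group thus held aged mice that had been dosed orally, and all RNA came from slices kept outside the animal. Each of the 4 groups given vehicle (WT sham, WT stimulated, T41B sham, T41B stimulated) held 4 mice, each WT group given BD10-2 held 3, and each T41B group given BD10-2 held 5. A sham slice and a stimulated slice were both available from 14 mice.

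Neurotrophins are secreted growth factors made as longer precursors and cut by proprotein convertases. BDNF acts mainly through the receptor tyrosine kinase TrkB, the product of Ntrk2, and neurotrophin-3, the product of Ntf3, mainly through TrkC, the product of Ntrk3. Both precursors and mature forms can bind the p75 receptor, encoded by Ngfr, and sortilin, encoded by Sort1, pairs with p75 for the precursors and also sorts BDNF inside the cell. VGF is a granin-like precursor of secreted peptides whose gene is known to be switched on by BDNF. In the hippocampus BDNF is known for its induction by neuronal activity and its part in synaptic plasticity, neurotrophin-3 is best known from dentate granule cells, and a truncated TrkB without the kinase is abundant in astrocytes.

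Both Trk receptor genes produce full-length and truncated receptors that the gene-level counts add together, so the coding sequences at the point of divergence are shown first. In each line the lower-case letters are the last 30 bases shared by the 2 forms and the capitals are the bases after the split, 37 for Ntrk2 and 40 for Ntrk3, read from the GENCODE M21 transcripts. The short Ntrk2 form ends with its 37 unshared bases, whereas the full-length form continues for 1072.
Ntrk2-201, full-length TrkB: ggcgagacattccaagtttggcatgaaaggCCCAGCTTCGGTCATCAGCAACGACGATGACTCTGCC
Ntrk2-202, truncated TrkB: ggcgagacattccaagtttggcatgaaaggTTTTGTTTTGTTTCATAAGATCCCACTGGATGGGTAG
Ntrk3-201, full-length TrkC: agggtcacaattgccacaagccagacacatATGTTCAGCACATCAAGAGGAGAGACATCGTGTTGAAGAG
Ntrk3-202, truncated TrkC: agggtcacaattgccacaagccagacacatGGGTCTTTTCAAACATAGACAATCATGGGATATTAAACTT
Ntrk2-201 has 2466 coding bases and Ntrk2-202 has 1431, with the first 1394 in common. Ntrk3-201 has 2478 and Ntrk3-202 has 1839, with the first 1585 in common. A change in the balance of full-length and truncated receptors would not appear in any value below unless the sum moved.

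Promoter windows were available from RefSeq (GRCm38.p6) for 4 of the 7 genes, 7 for Bdnf, 2 for Ntf3, 1 for Ntrk2 and 1 for Ngfr. The 250 bases before each start were searched on both strands for CGTCA, which reads as TGACG on the opposite strand, the short core of the cyclic AMP response element, and for the complete element TGACGTCA, which contains it. The short core was found in 1 Bdnf window, at -35 from the start at position 109692436, and in none of the other windows of these genes. It is shown in capitals within the 100 bases before that start because Bdnf is the member best known for activity-dependent transcription.
Bdnf promoter, chr2:109692336-109692435, plus strand: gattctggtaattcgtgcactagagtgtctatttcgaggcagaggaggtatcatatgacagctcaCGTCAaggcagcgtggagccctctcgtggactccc
Of 32851 windows of this length, 17.8% held the short core and 1.55% the complete element. The match describes these letters and not binding.

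The genes lie on 7 chromosomes of GRCm38. Bdnf is at chr2:109674700-109727007 on the plus strand, Ntf3 at chr6:126101412-126166910 on the minus strand, Ntrk2 at chr13:58806569-59133970 on the plus strand and Ntrk3 at chr7:78175959-78738012 on the minus strand. Ngfr is at chr11:95568818-95587735 on the minus strand, Sort1 at chr3:108284082-108361511 on the plus strand and Vgf at chr5:137026392-137033351 on the plus strand. Of the Bdnf exon bases, 14.4% overlap the antisense gene Gm45346, and 4.47% of those of Sort1 overlap the antisense gene Gm12523. The strand setting of the counting is not given in the sources used here, so reads in those stretches may not be separable from the antisense gene.

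Library totals ran from 11597555 to 28125842 expected counts. Thy1, whose promoter cassette drives the transgene, was at 253 to 403 CPM (counts scaled to library size) in the 16 WT libraries and 918 to 2504 CPM in the 20 T41B libraries, which fits every genotype label. Markers of the hippocampal subfields were present throughout, with group means of 201 to 311 CPM for 3 dentate markers, 182 to 258 for 3 CA1 markers and 60.22 to 80.2 for 3 CA3 markers. Markers of several cell types moved with the groups. The summed level of 7 neuronal markers was 3738 CPM in WT vehicle sham samples and 3170 in WT vehicle stimulated samples, against 3052 and 2643 in the corresponding T41B groups. All 6 microglial markers fell with stimulation in 3 of the 4 comparisons and 5 of 6 fell in WT vehicle mice, and between 2 and 6 of them were higher in T41B mice in each genotype comparison. Of 6 astrocyte markers, 2 were called higher after stimulation in WT vehicle mice, 3 in T41B vehicle mice, 0 in WT BD10-2 mice and 2 in T41B BD10-2 mice. In 6 samples, all from vehicle-treated mice of batches E and G, 7 choroid plexus markers summed to between 113 and 1189 CPM, while the other 26 stayed at or below 28.2 CPM. In WT mice these were stimulated slices only, so fits without the 6 samples kept the WT sham slices without their partners. In T41B mice both slices were left out. In bulk samples fewer cells of a type and less RNA per cell cannot be told apart.

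Levels between genes were compared per kilobase of merged exon. Sort1 was highest at 73.5 CPM per kilobase, followed by Vgf at 51.2, Ntrk2 at 33.3, Ntrk3 at 12.1, Bdnf at 5.95, Ntf3 at 1.75 and Ngfr at 0.636. Over the 32 samples the range of Sort1 (58.2 to 90.1) overlapped that of Vgf (26.4 to 78.4), and that of Vgf overlapped Ntrk2 (25.3 to 37.8). Ntrk2 lay above Ntrk3 (7.56 to 16.1) in every sample, Ntrk3 and Bdnf (3.39 to 8.73) met at their edges, Ntf3 (0.861 to 2.81) lay below Bdnf, and Ngfr (0.224 to 1.01) met Ntf3 at its edge. The order of Vgf and Ntrk2 depended on the length used, since dividing by the longest coding transcript put Ntrk2 at 73.4 and Vgf at 53.7 CPM per kilobase. Per kilobase of merged exon, the Trk receptor genes, with full-length and truncated forms summed, had higher mean levels than Bdnf and Ntf3. Ngfr had the lowest count of the 7. The neurotrophin gene Ntf5 was at no more than 0.220 CPM and did not pass the filter.

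**Figure D1:**
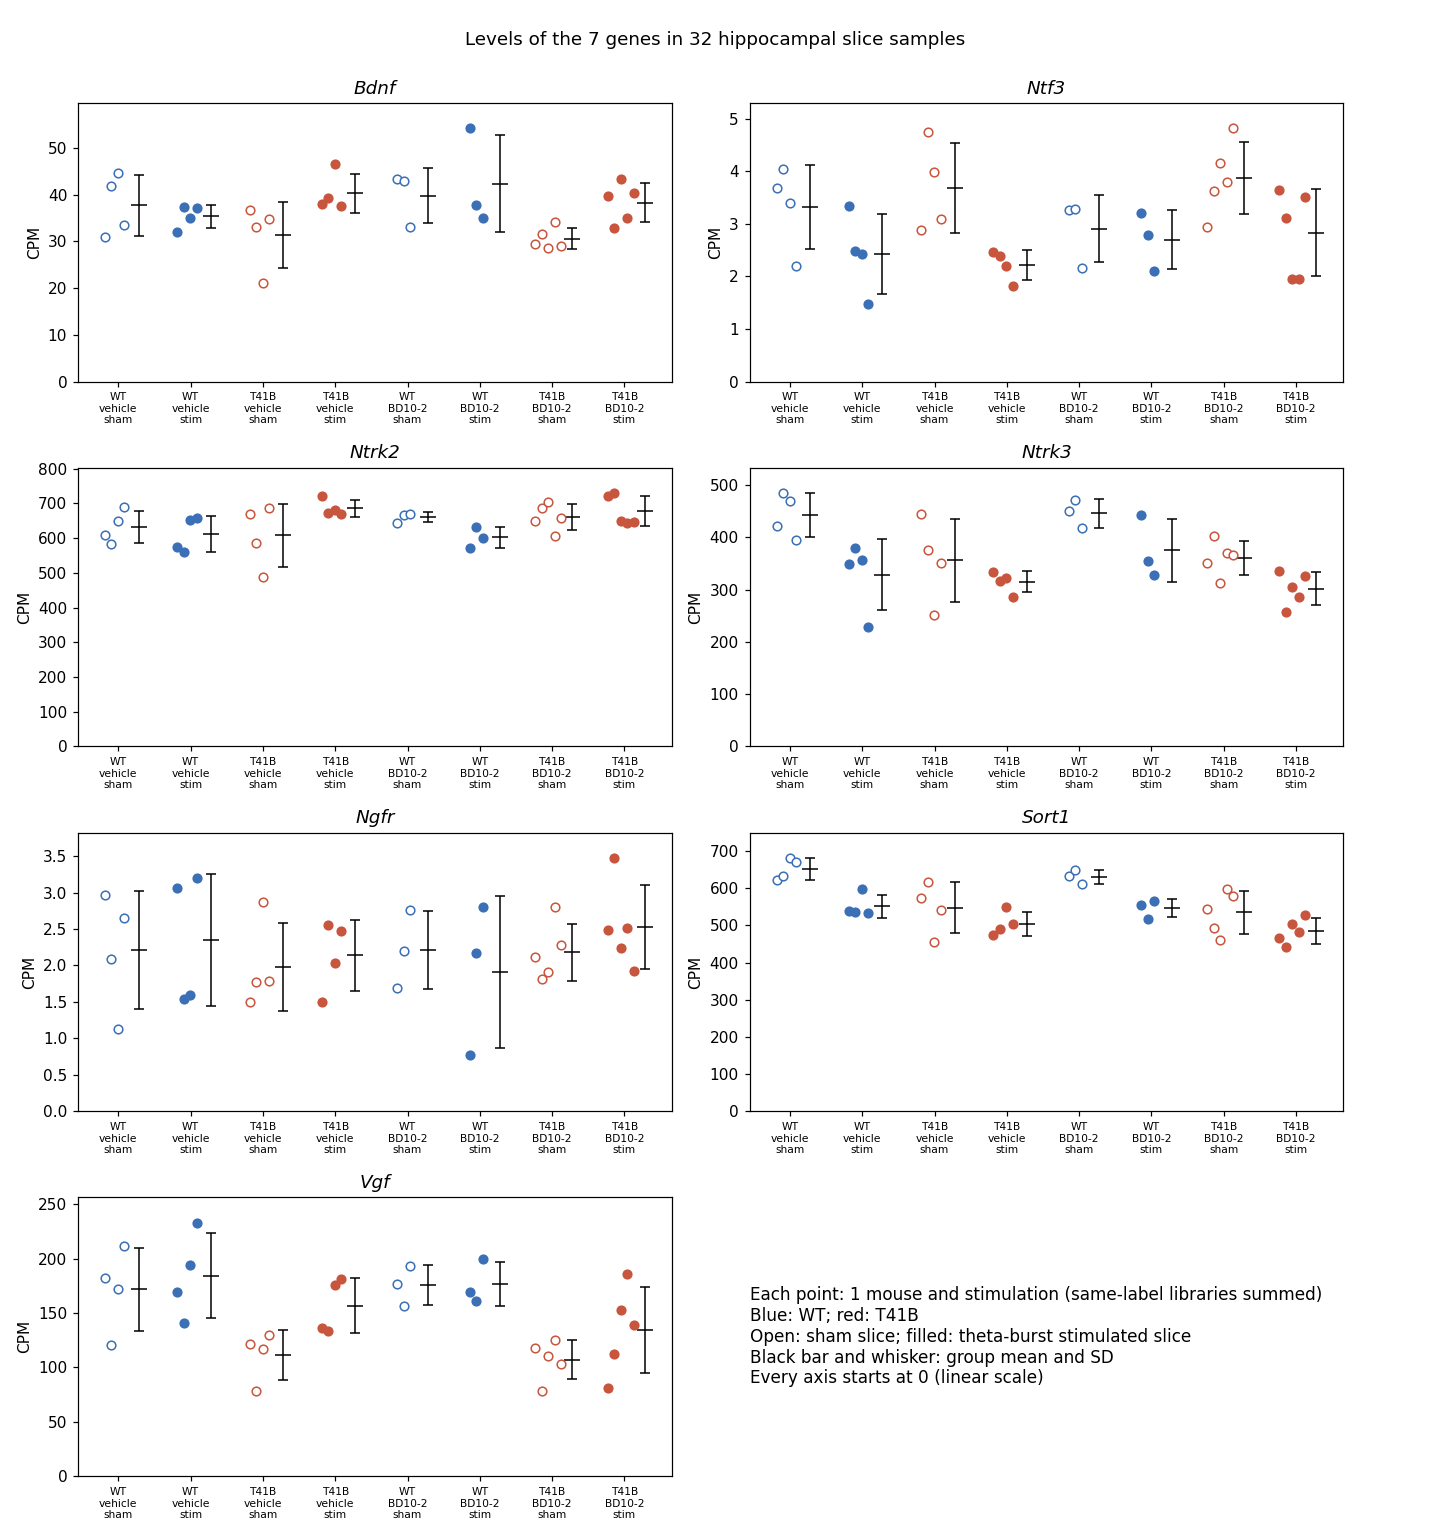
Level in CPM (linear axis from 0) of each of the 7 genes in the 32 samples, by group of genotype, treatment and stimulation, with blue for WT, red for T41B, open points for sham, filled points for stimulated slices, and bars for mean and SD. Vgf in T41B sham samples sits low (78.4 to 129 CPM under vehicle), Ntrk3 in WT vehicle mice sits lower in stimulated than in sham slices, and Ntrk2 is nearly level across groups.

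With theta-burst stimulation Ntrk3 fell in WT vehicle mice and Ntf3 fell in T41B vehicle mice. In the test over all genes (edgeR's quasi-likelihood test, Benjamini-Hochberg adjustment, threshold 0.05), these were the 2 of the 28 stimulation tests of the members that passed. Over all genes 8.21% were called higher and 4.1% lower in WT vehicle, and 11.7% and 9.83% in T41B vehicle mice. Under BD10-2 these shares were 6.29% and 2.58% in WT, and 13.3% and 9.52% in T41B mice. The median log2 fold change of the 7 was -0.09 in WT vehicle mice against -0.01 over all genes, 0.10 against -0.05 in T41B vehicle mice, -0.13 against -0.01 in WT BD10-2 mice and 0.04 against -0.04 in T41B BD10-2 mice. This test treats the slices of a mouse as independent. Where keeping the mouse as a block in the fit, fixed in edgeR or random in limma, changes a call, a value is given beside it.

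Bdnf, the ligand of TrkB, was measured at 30.9, 41.8, 44.6 and 33.4 CPM in WT vehicle sham samples and at 32.04, 37.3, 35.0 and 37.2 CPM in WT vehicle stimulated samples. In T41B vehicle mice it was 36.7, 33.1, 21.1 and 34.8 CPM in sham and 37.9, 39.3, 46.5 and 37.5 CPM in stimulated samples. The WT values overlapped throughout, whereas every stimulated T41B value lay above every sham value, a lack of overlap that 20.4% of all genes shared in that comparison. The fitted log2 difference was -0.09 (SE 0.15, edgeR adjusted p = 0.746) in WT vehicle mice and 0.36 (SE 0.15, adjusted p = 0.0782) in T41B vehicle mice, so neither passed this test. With the mouse as a block the T41B vehicle value was 0.38 (adjusted p = 0.0562) in edgeR, and 0.39 (adjusted p = 0.0205) in limma, which called it but differs from edgeR in more than the block. Under BD10-2 it was 43.2, 43.0 and 33.0 CPM in WT sham, 54.2, 37.8 and 35.1 CPM in WT stimulated, 29.4, 31.5, 28.7, 34.2 and 29.1 CPM in T41B sham and 39.8, 33.0, 43.2, 35.0 and 40.4 CPM in T41B stimulated samples. The T41B BD10-2 groups overlapped only between 33.0 and 34.2 CPM. The log2 difference there was 0.33 (SE 0.13, edgeR adjusted p = 0.0699), and with the mouse as a block 0.34 (adjusted p = 0.0940) in edgeR and 0.34 (adjusted p = 0.0305) in limma. It became 0.33 with adjusted p = 0.0482 when the 6 samples high in choroid plexus markers were left out, while that of T41B vehicle mice dropped to 0.07 (adjusted p = 0.879) in the same fit.

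Ntf3, which encodes the TrkC ligand neurotrophin-3, was lower after stimulation in T41B vehicle mice. It was at 2.88, 4.74, 3.99 and 3.10 CPM in sham and 2.45, 2.38, 2.201 and 1.82 CPM in stimulated samples, and the groups did not overlap. The log2 difference was -0.73 (SE 0.25, edgeR adjusted p = 0.0343), and -0.71 (adjusted p = 0.00687) with the mouse as a block. Over all genes 9.83% were called lower and 11.7% higher in this comparison, and 20.4% had groups that did not overlap. In WT vehicle mice Ntf3 was at 3.68, 4.04, 3.39 and 2.19 CPM in sham and 3.33, 2.48, 2.42 and 1.48 CPM in stimulated samples, with overlap and a log2 difference of -0.44 (SE 0.25, edgeR adjusted p = 0.268). Under BD10-2 it was 3.27, 3.29 and 2.17 CPM in WT sham, 3.20, 2.79 and 2.10 CPM in WT stimulated, 2.94, 3.63, 4.16, 3.79 and 4.82 CPM in T41B sham and 3.64, 3.12, 1.94, 1.95 and 3.52 CPM in T41B stimulated samples. The log2 differences were -0.13 (edgeR adjusted p = 0.846) in WT and -0.43 (adjusted p = 0.161) in T41B mice, both with overlapping groups.

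The fall of Ntf3 moved together with markers of dentate granule cells, the neurons best known for Ntf3. Their 3 markers summed to 255, 438, 332 and 219 CPM in the T41B vehicle sham samples and 218, 186, 211 and 187 CPM in the stimulated samples, in the same order of mice as above, and 2 of the 3 were called lower. The sham samples highest in Ntf3 were the 2 highest in these markers, and they came from the mice whose slices were also high in choroid plexus markers. Without the samples high in choroid plexus markers, which left 2 and 2, the log2 difference of Ntf3 was -0.47 (adjusted p = 0.505). In the same fit that of WT vehicle mice was -0.75 (adjusted p = 0.113), and the T41B minus WT response under vehicle went from -0.29 (adjusted p = 0.820) to 0.28 (adjusted p = 0.974). Those 2 shifts also reflect broken pairs, since WT sham slices stayed without their stimulated partners. In the mice that kept both slices the log2 ratios of Ntf3 were -0.49 and -0.57 in WT and -0.23 and -0.77 in T41B vehicle mice. Leaving out either of the 2 T41B mice highest in sham Ntf3, or the mouse at 3.10 CPM in sham, also ended the call, with adjusted p = 0.170, 0.128 and 0.0791. The part of the dentate markers in the result was not tested.

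Ntrk2, the TrkB gene, was nearly level across groups. Its group means ran only from 601.8 CPM in WT BD10-2 stimulated samples to 686 CPM in T41B vehicle stimulated samples. In T41B vehicle mice it was at 670.3, 587, 488 and 685 CPM in sham and 722, 673, 679.9 and 669.6 CPM in stimulated samples. These overlapped, with the sham slice at 488 CPM low, and the log2 difference was 0.18 (SE 0.08, edgeR adjusted p = 0.143), or 0.19 (adjusted p = 0.0413) with the mouse as a block. Without the samples high in choroid plexus markers it was 0.04 (adjusted p = 0.888). In the other 3 stimulation comparisons the log2 differences ran from -0.13 to 0.04, and none passed in either fit. In WT BD10-2 mice all stimulated samples (571, 632 and 601 CPM) lay below all sham samples (643, 667 and 668 CPM), as for 32.9% of all genes in either direction, at a log2 difference of -0.13 (edgeR adjusted p = 0.459).

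Ntrk3, the TrkC gene, fell with stimulation in WT vehicle mice. It was at 421, 485, 469.8 and 394 CPM in sham and 349.8, 379.5, 356 and 228 CPM in stimulated samples. No stimulated value reached the lowest sham value, and the log2 difference was -0.43 (SE 0.14, edgeR adjusted p = 0.0393), or -0.45 (adjusted p = 0.00743) with the mouse as a block. Over all genes 4.1% were called lower and 8.21% higher in this comparison, and 16.1% had groups that did not overlap. In the same comparison all 7 choroid plexus markers were called higher, with 2 of the 4 stimulated slices at sums of 975 and 1189 CPM, and without the samples high in these markers Ntrk3 was at -0.61 (adjusted p = 0.0140). Leaving out any 1 of the 4 mice ended the call, with adjusted p from 0.0771 to 0.136. In T41B vehicle mice Ntrk3 was at 445, 376, 252 and 350.2 CPM in sham and 334, 316, 322 and 287 CPM in stimulated samples. These overlapped because of the low value of 252 CPM, from the mouse that was also low in Ntrk2, and the log2 difference was -0.18 (SE 0.14, edgeR adjusted p = 0.395). It was -0.32 (adjusted p = 0.145) without that mouse, -0.07 (adjusted p = 0.803) without another, and -0.36 (adjusted p = 0.270) without the samples high in choroid plexus markers. Under BD10-2 the log2 differences were -0.25 (edgeR adjusted p = 0.380) in WT and -0.26 (adjusted p = 0.140) in T41B mice.

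Ngfr, the p75 gene, was low and scattered, with single samples from 0.770 to 3.48 CPM. Its stimulation differences ran from -0.18 to 0.21 on the log2 scale, all with adjusted p of 0.644 or more. The 95% intervals were wide, from -0.92 to 0.57 in WT BD10-2 mice for instance, so that differences within that interval were not resolved with these samples.

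Sort1, the sortilin gene, was lower in every stimulated WT slice than in any sham WT slice of the same treatment. In WT vehicle mice it was at 622, 634, 682 and 669 CPM in sham and 539.9, 536, 598 and 534 CPM in stimulated samples. In WT BD10-2 mice it was at 632, 648 and 610.3 CPM in sham and 554, 519 and 565 CPM in stimulated samples. The groups did not overlap in either comparison, where 16.1% and 32.9% of all genes shared that property. The log2 differences were -0.24 (SE 0.08, edgeR adjusted p = 0.0621) and -0.21 (SE 0.10, adjusted p = 0.203), and the first became -0.24 with adjusted p = 0.0384 with the mouse as a block. In T41B mice the samples overlapped and the log2 differences were -0.12 under vehicle and -0.14 under BD10-2, neither of which passed. The vehicle value was -0.24 (adjusted p = 0.0713) without the T41B mouse whose sham slice was low in Ntrk2 and Ntrk3, and -0.19 (adjusted p = 0.389) without the samples high in choroid plexus markers. The T41B minus WT response of Sort1 under vehicle was 0.12 (adjusted p = 0.775), and 0.00 (adjusted p = 0.999) and 0.02 (adjusted p = 0.995) in those fits.

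Vgf, the secreted-peptide precursor, was higher in the stimulated slice of every T41B mouse with both slices. Under vehicle it was at 122, 78.4, 117 and 129 CPM in T41B sham and 136, 134, 176 and 181 CPM in T41B stimulated samples, and these did not overlap, as for 20.4% of all genes. The log2 difference was 0.49 (SE 0.20, edgeR adjusted p = 0.0817), and with the mouse as a block it was 0.50 (SE 0.09, adjusted p = 0.000663), which passed. Without the samples high in choroid plexus markers it was 0.33 (adjusted p = 0.552). In WT vehicle mice Vgf was at 183, 120.3, 173 and 212 CPM in sham and 169, 141, 194 and 233 CPM in stimulated samples, a log2 difference of 0.10 (edgeR adjusted p = 0.796). Without the samples high in choroid plexus markers it was 0.31 (adjusted p = 0.407), but that fit kept WT sham slices whose stimulated partners it dropped. In the mice that kept both slices the log2 ratios of Vgf were 0.17 and 0.14 in WT and 0.16 and 0.48 in T41B vehicle mice. Under BD10-2 it was 0.01 (edgeR adjusted p = 0.991) in WT and 0.33 (adjusted p = 0.200) in T41B mice.

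In the 2 BD10-2 stimulation comparisons no member was called by edgeR, where 6.29% of all genes were called higher and 2.58% lower in WT, and 13.3% higher and 9.52% lower in T41B mice. At an unadjusted p under 0.05 the members numbered 1 in WT and 2 in T41B, among 4401 and 6694 of the 19478 genes tested. DESeq2 also called no member in these 2 comparisons, with 2070 and 4594 genes called. Limma with the mouse as a random block called 0 members in WT and 1 in T41B, with 3117 and 6103 genes called. With the mouse as a block edgeR called 1286 genes in WT and 4656 in T41B, 6.6% and 23.9%, again without a member. In vehicle mice the block raised the share of all genes called to 20.1% in WT and 29.5% in T41B, and the members called from 1 to 2 in WT (Ntrk3, Sort1) and from 1 to 3 in T41B (Ntf3, Ntrk2, Vgf).

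The 14 mice with both slices give the direction directly. Ntf3, Ntrk3 and Sort1 were each lower in the stimulated slice of 13 of 14 mice, as were at least that many for 12.5% of all genes tested. The exception was a T41B BD10-2 mouse for Ntf3, with a log2 ratio of 0.00, and for both Ntrk3 (0.35) and Sort1 (0.27) a T41B vehicle mouse, whose sham slice was the lowest of all 32 samples in Bdnf and Ntrk2. Vgf was higher in 12 of 14 mice and Bdnf in 11 of 14, against 19.2% and 24% of all genes at those counts or more. Ntrk2 and Ngfr split 7 to 7. By genotype, Bdnf and Vgf were higher in 8 of 8 T41B mice, as were 13.8% of all genes, and in 3 and 4 of 6 WT mice. Ntf3, Ntrk3 and Sort1 were lower in 6 of 6 WT mice, as were 14.6% of all genes, and in 7 of 8 T41B mice. The mean log2 ratio of Bdnf was 0.39 ± 0.51 (SD, n = 4) in T41B vehicle mice and 0.34 ± 0.11 (n = 4) in T41B BD10-2 mice, and that of Vgf was 0.50 ± 0.26 and 0.20 ± 0.20. The larger spread of Bdnf under vehicle came from the same T41B vehicle mouse, at 1.14.

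**Figure D2:**
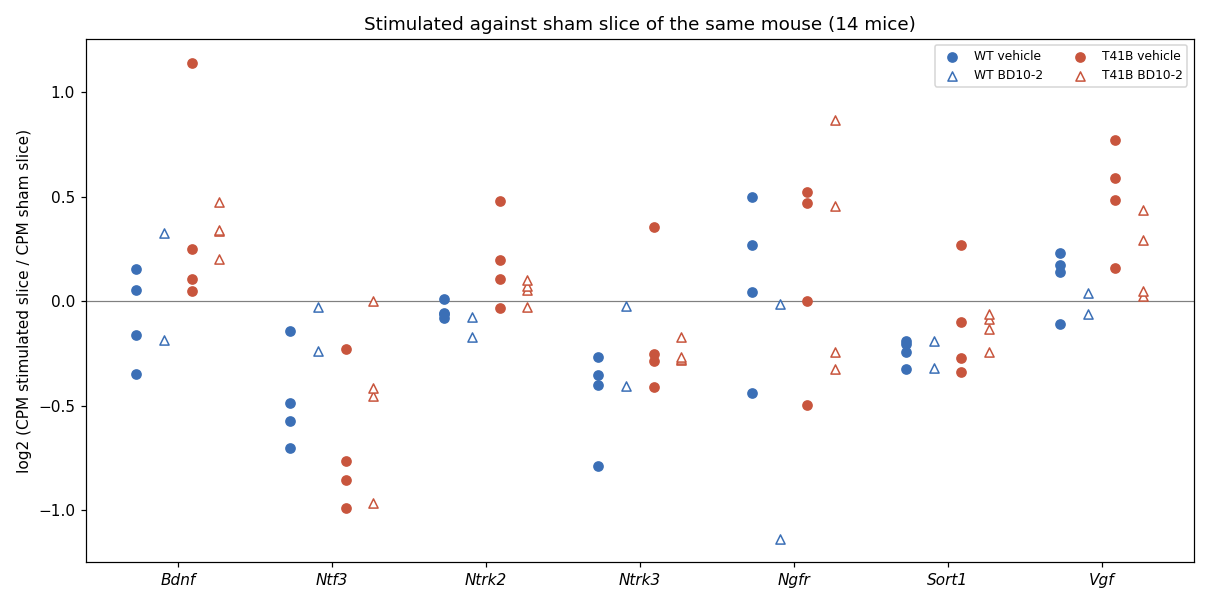
Log2 ratio of the CPM of the stimulated to the sham slice of the same mouse (vertical axis) for the 7 genes in 14 mice, blue for WT, red for T41B, filled circles for vehicle and open triangles for BD10-2. Points of Ntf3, Ntrk3 and Sort1 lie below 0 in 13 of 14 mice, and those of Bdnf and Vgf lie above 0 in all 8 T41B mice.

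Whether the response to stimulation differed between genotypes was tested with interaction terms, and no member passed. For Bdnf under vehicle the T41B response exceeded the WT response by 0.45 on the log2 scale (95% interval 0.03 to 0.87, edgeR adjusted p = 0.550). With the mouse as a block the excess was 0.46 (adjusted p = 0.290) for Bdnf and 0.39 (95% interval 0.13 to 0.66, adjusted p = 0.221) for Vgf. Without the samples high in choroid plexus markers, where WT sham slices stayed without their stimulated partners, it was 0.14 (adjusted p = 0.976) for Bdnf and 0.03 (adjusted p = 0.9998) for Vgf. Leaving out 1 T41B mouse brought that of Bdnf to 0.23 (adjusted p = 0.957). Under BD10-2 the excess was 0.24 for Bdnf and 0.32 for Vgf, both with edgeR adjusted p of 1. Over all genes edgeR called 0% in each of the 4 interactions, of genotype with stimulation under vehicle and under BD10-2 and of treatment with stimulation in WT and in T41B mice. The counts at an unadjusted p under 0.05 were 1683, 846, 337 and 526 genes, of which 1, 0, 0 and 0 were members, and DESeq2 called 1, 18, 0 and 1 genes, none of them a member.

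The comparison of T41B with WT mice asks how the amyloid model changed these genes. Vgf was the member that differed most. In BD10-2 sham samples it was at 176, 157 and 194 CPM in WT and at 118, 78.6, 110.4, 125 and 103 CPM in T41B mice. The WT sample at 176 CPM joins same-label libraries at 158 and 203 CPM, and the T41B sample at 118 CPM joins libraries at 92.2 and 145 CPM. All T41B values lay below all WT values, and the log2 difference was -0.71 (SE 0.20, edgeR adjusted p = 0.0331). Over all genes 1.14% were called lower and 4.31% higher in this comparison, and 17.7% had groups that did not overlap. In vehicle sham samples the same values were 183, 120.3, 173 and 212 CPM in WT against 122, 78.4, 117 and 129 CPM in T41B mice. They overlapped because of a single WT sample at 120.3 CPM, and the log2 difference of -0.62 (SE 0.20, edgeR adjusted p = 0.0603) missed the threshold. DESeq2 put that adjusted p at 0.0329.

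In stimulated samples no gap passed. The log2 difference of Vgf was -0.23 (SE 0.20, edgeR adjusted p = 0.608) under vehicle, or -0.42 (adjusted p = 0.572) without the samples high in choroid plexus markers, where the sham value was -0.44 (adjusted p = 0.743), and -0.40 (SE 0.20, adjusted p = 0.244) under BD10-2. Under BD10-2 the values were 169, 161 and 199 CPM in WT and 81.2, 112, 153, 186 and 139 CPM in T41B stimulated samples, so that the ranges overlapped. The interaction that would compare sham with stimulated slices did not pass, as given above.

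Libraries carry a batch letter, and 4 batches held sham samples of both genotypes under 1 treatment. Batches A, C and D held 1 such mouse per genotype, and batch I held 1 T41B and 2 WT mice, all among the samples tested above. The log2 ratio of Vgf in T41B to WT was -0.50 in batch A, -0.71 in C, -0.91 in D and -0.42 in I, lower in T41B mice in each. How many other genes were lower in all 4 was not counted. In stimulated samples the Vgf ratio was -0.51 in A and -0.36 in C, with 1 mouse per genotype, and 0.03 in I, with 2 per genotype. With batch as a covariate the BD10-2 sham difference was -0.54 (edgeR adjusted p = 0.0957) and no longer passed. Leaving out any of the 3 WT mice, or either of 2 of the T41B mice (at 110.4 and 103 CPM), also ended the call, with adjusted p from 0.0595 to 0.148.

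**Figure D3:**
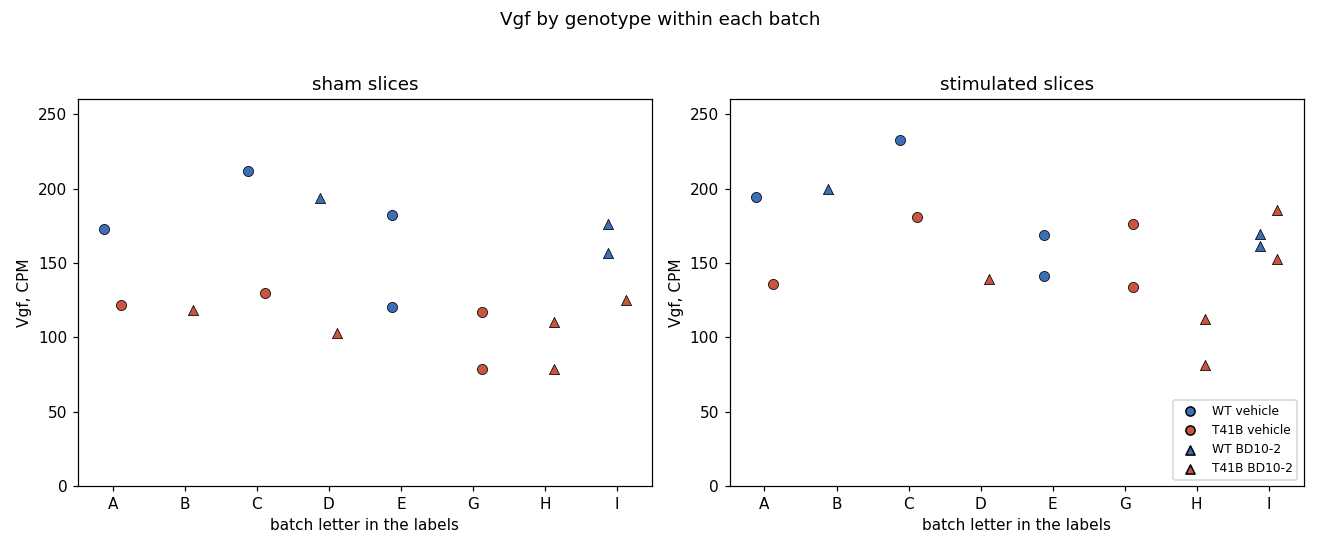
Level of Vgf in CPM (vertical axis from 0) by batch letter, sham slices on the left and stimulated slices on the right, blue for WT, red for T41B, circles for vehicle and triangles for BD10-2. In batches A, C, D and I every T41B sham sample lies below the WT sham samples, while in the stimulated slices of batch I the genotypes overlap.

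Sort1, Ntrk3 and Bdnf were lower on average in T41B sham samples without passing. Sort1 was at 622, 634, 682 and 669 CPM in WT vehicle sham and 574, 618, 456 and 541 CPM in T41B vehicle sham samples, which did not overlap, as for 9.58% of all genes, with a log2 difference of -0.25 (SE 0.08, edgeR adjusted p = 0.0736). In BD10-2 sham samples it was at 632, 648 and 610.3 CPM in WT and 545, 493, 459.7, 598 and 580.3 CPM in T41B mice, again without overlap, as for 17.7% of all genes, at -0.24 (adjusted p = 0.118). Ntrk3 differed by -0.31 in vehicle sham, BD10-2 sham and BD10-2 stimulated samples (edgeR adjusted p = 0.181, 0.235 and 0.173) and by -0.06 in vehicle stimulated samples. Bdnf differed by -0.38 (adjusted p = 0.143) in BD10-2 sham and by -0.26 (adjusted p = 0.305) in vehicle sham samples. Without the samples high in choroid plexus markers the vehicle sham difference was -0.07 (adjusted p = 0.995) for Bdnf and -0.15 (adjusted p = 0.982) for Ntrk3. For this comparison that fit removed T41B samples of batch G and no WT samples, so mice and batches changed on 1 side only. Leaving out single mice moved that of Ntrk3 between -0.18 (adjusted p = 0.606) and -0.44 (adjusted p = 0.0497), and that of Bdnf to as little as -0.11 (adjusted p = 0.789). In stimulated samples Bdnf differed by 0.19 under vehicle (adjusted p = 0.559) and by -0.15 under BD10-2 (adjusted p = 0.618). Under vehicle every T41B value lay above every WT value, a lack of overlap shared by 11.1% of all genes. The gap was small, from 37.3 CPM in WT to 37.5 CPM in T41B mice. Ntf3 differed by 0.15 and 0.39 in vehicle sham and BD10-2 sham samples (adjusted p = 0.748 and 0.407), and Ntrk2 by -0.06 and 0.00. The vehicle sham values turned to -0.14 for Ntf3 (adjusted p = 0.995) and 0.11 for Ntrk2 (adjusted p = 0.922) without the samples high in choroid plexus markers. In stimulated samples Ntrk2 was 0.17 higher under vehicle and 0.17 higher under BD10-2, with adjusted p of 0.317 and 0.240, and 0.10 (adjusted p = 0.732) under vehicle without those samples. The Ntrk2 groups did not overlap in either comparison, which held for 11.1% and 14.8% of all genes. Astrocyte markers were called higher in T41B mice for 2 of 6 under vehicle and 4 of 6 under BD10-2 in these stimulated samples, and for 2 of 6 in each sham comparison. In vehicle sham, vehicle stimulated, BD10-2 sham and BD10-2 stimulated samples, 1, 2, 2 and 0 of 7 neuronal markers were called lower and 5, 2, 4 and 6 of 6 microglial markers higher in T41B mice, and the part of all these markers in the differences was not tested.

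In the other 3 genotype comparisons edgeR called no member. The share of all genes called was 5% higher and 1.24% lower in vehicle sham, 4.74% higher and 1.05% lower in vehicle stimulated, and 8.19% higher and 2.36% lower in BD10-2 stimulated samples. At an unadjusted p under 0.05 the members numbered 3, 0 and 1, and DESeq2 called 2, 0 and 0. The median log2 difference of the 7 genes was -0.25, -0.13 and -0.15, against 0.00, -0.03 and -0.02 over all genes, and in BD10-2 sham samples it was -0.24 against 0.01.

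BD10-2 acts on the receptors encoded by Ntrk2 and Ntrk3, and the treatment comparisons ask whether dosing changed the levels of these genes. No member differed between BD10-2 and vehicle in any of the 4 comparisons (WT sham, WT stimulated, T41B sham, T41B stimulated), and none had an unadjusted p under 0.05. Over all genes edgeR called 0% in each, with 374, 1093, 431 and 759 genes at an unadjusted p under 0.05, and DESeq2 called 0, 24, 0 and 0, none of them a member. The log2 difference of Ntrk2 was 0.12 (95% interval -0.04 to 0.28) in T41B sham and -0.02 (-0.18 to 0.15) in T41B stimulated samples. That of Ntrk3 was 0.02 (-0.25 to 0.29) and -0.06 (-0.33 to 0.21). For Vgf it was -0.06 (-0.45 to 0.33) and -0.22 (-0.61 to 0.16), and for Bdnf -0.04 (-0.33 to 0.24) and -0.07 (-0.36 to 0.21). The ligand Ntf3 and the receptor Ngfr left the widest room, with intervals reaching 0.85 for Ntf3 in T41B stimulated and -0.98 for Ngfr in WT stimulated samples. A miss of the threshold does not show that levels were alike, and each batch held a single treatment, so that batch and treatment cannot be told apart.

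**Figure D4:**
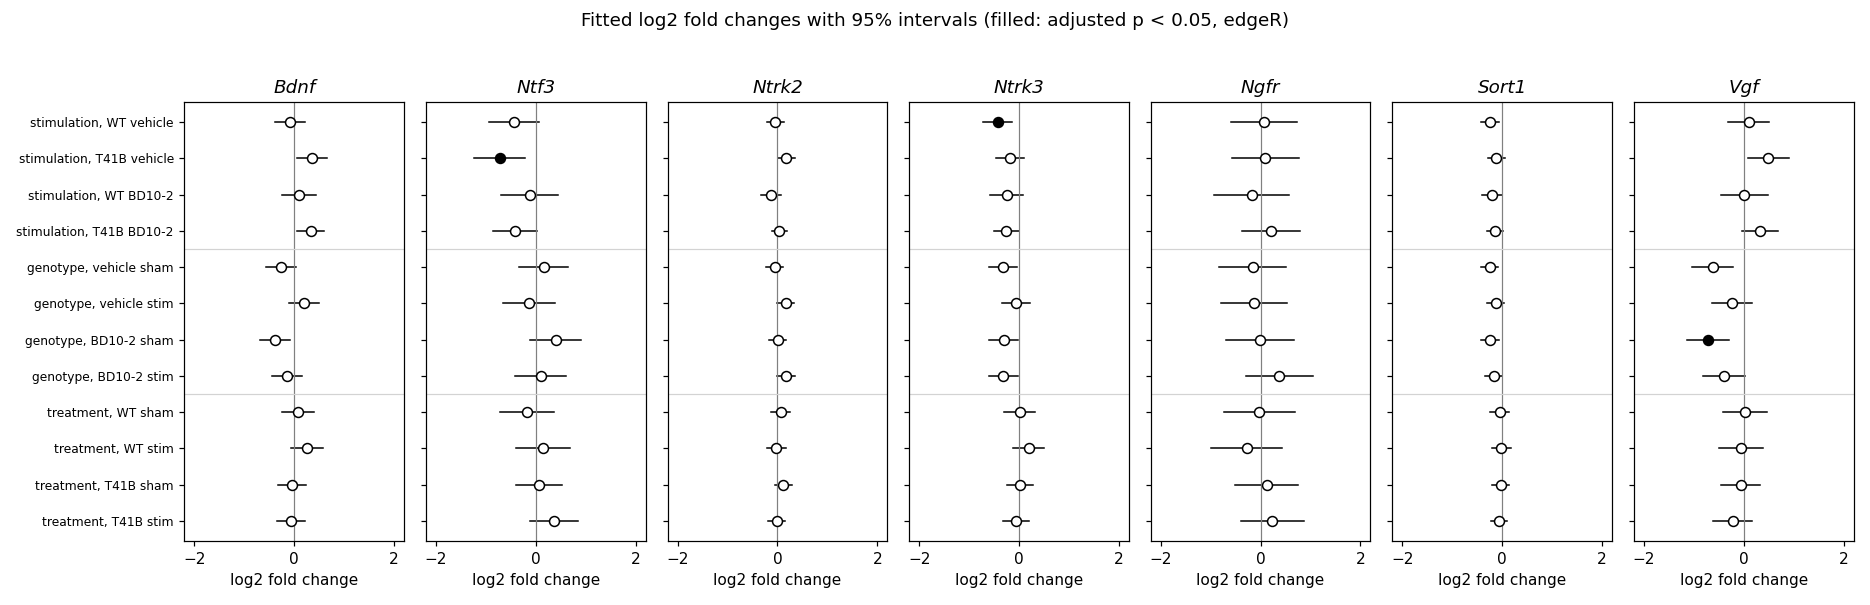
Fitted log2 fold change with its 95% interval (horizontal axis) for the 7 genes in the 4 stimulation, 4 genotype and 4 treatment comparisons, with filled points for an edgeR adjusted p under 0.05. The 3 filled points are Ntrk3 with stimulation in WT vehicle mice (-0.43), Ntf3 with stimulation in T41B vehicle mice (-0.73) and Vgf by genotype in BD10-2 sham samples (-0.71).

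The rest of the pathway was followed through 7 gene lists. Their counts stand against the shares of all genes called after stimulation, 8.21%, 11.7%, 6.29% and 13.3% higher and 4.1%, 9.83%, 2.58% and 9.52% lower in WT vehicle, T41B vehicle, WT BD10-2 and T41B BD10-2 mice, the order used below. Among 9 tested genes of the neurotrophin system outside the 7 members, none was called after stimulation in WT mice and 2 and 3 were called higher in T41B mice under vehicle and BD10-2. Sh2b2, an adaptor that binds activated Trk receptors, rose by 0.45 (SE 0.15, edgeR adjusted p = 0.0255) and 0.67 (SE 0.13, adjusted p = 0.000238) in these, and was higher in T41B than WT mice in all 4 genotype comparisons, by 0.67 to 1.02 on the log2 scale. Sorcs3, a sortilin-family receptor named after its values were seen, rose by 0.53 and 0.37.

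Of 42 adaptors and kinases downstream of Trk receptors, 6, 5, 3 and 10 were called higher after stimulation in WT vehicle, T41B vehicle, WT BD10-2 and T41B BD10-2 mice, and 0, 5, 0 and 3 lower, with list medians of 0.08, -0.02, 0.03 and 0.00 against -0.01, -0.05, -0.01 and -0.04 over all genes. In T41B vehicle and WT BD10-2 mice the share called higher was near that of all genes. Gab2, a docking protein, rose in all 4, by 0.49 to 0.74 on the log2 scale, and so did the ERK5 gene Mapk7, by 0.34 to 0.61. Plcg2 and Rps6ka1 fell in T41B mice (-0.75 and -0.66 under vehicle) and were higher in T41B than WT sham samples (0.89 and 0.61 under vehicle). Shc2, an adaptor of neurons, was lower in T41B BD10-2 stimulated samples (-0.32, SE 0.10, edgeR adjusted p = 0.0433). Plcg2 is also expressed by microglia, whose summed markers went from 380.0 CPM in T41B vehicle sham to 139.6 CPM in stimulated samples, and the part of this in its fall was not tested.

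Of 15 effectors and co-receptors of p75, 3, 2, 1 and 2 were called higher and 1, 2, 1 and 2 lower after stimulation in the same order, and the list medians stayed between -0.05 and 0.00. Apart from the 3 called higher in WT vehicle mice, these counts lie within 1 gene of the shares of all genes. Ripk2, a kinase that can bind p75, rose in all 4 by 1.54 to 2.30 on the log2 scale. Mapk9, the JNK2 gene, fell in all 4, with log2 fold changes of -0.22 to -0.35. Arhgdib, a gene active in blood-lineage cells and microglia, was higher in T41B mice in all 4 genotype comparisons, by 1.16 to 1.48.

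Proteases that can cut neurotrophin precursors, and their inhibitors, rose in part with stimulation. Of 13 tested genes, 5, 6, 5 and 5 were called higher and 1, 1, 1 and 3 lower after stimulation, with list medians of 0.11, 0.23, 0.16 and 0.24. Furin, the convertase that cuts neurotrophin precursors in the secretory pathway, rose by 0.45 (SE 0.13) in WT vehicle, 1.04 (SE 0.13) in T41B vehicle, 0.47 (SE 0.14) in WT BD10-2 and 1.23 (SE 0.11) in T41B BD10-2 mice. Plat, the tissue plasminogen activator that starts extracellular cleavage, rose by 0.89 to 1.40 on the log2 scale in all 4.

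Mmp3, a metalloproteinase, was at or near 0 in sham slices and reached 3.81 ± 1.86 CPM in WT vehicle and 9.09 ± 4.01 CPM in T41B vehicle stimulated samples. Against a floor of 3 counts per library it was at least 20.2-fold higher in WT vehicle, 36.1-fold in WT BD10-2 and 66.1-fold in T41B BD10-2 stimulated samples. Timp1, an inhibitor of such proteinases, was at least 6.22-fold higher in WT vehicle and at least 7.79-fold higher in WT BD10-2 stimulated samples. It also rose in T41B mice, by 3.86 under vehicle and 3.80 under BD10-2 on the log2 scale, from at most 11 and 21 counts in a sham sample. In BD10-2 sham samples Timp1 was at least 4.69-fold higher in T41B than WT mice. It was also called higher in T41B mice in vehicle stimulated (2.16) and BD10-2 stimulated samples (3.06). The convertase gene Pcsk2 fell in 3 comparisons (-0.33 to -0.39), Pcsk5 fell in both T41B comparisons (-0.51 and -0.58), and neuroserpin, Serpini1, fell in T41B BD10-2 mice (-0.48). By genotype, Pcsk2 was lower in vehicle sham samples (-0.39) and Serpini1 in 3 of 4 comparisons (-0.51 to -0.63).

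Granins and dense-core vesicle proteins, the class nearest to VGF, gave 1 call after stimulation. Of 10 genes only Scg3 was called, higher in T41B vehicle mice (0.27, SE 0.10, edgeR adjusted p = 0.0471). By genotype the list medians were -0.22, -0.21, -0.27 and -0.20 in vehicle sham, vehicle stimulated, BD10-2 sham and BD10-2 stimulated samples, against 0.00, -0.03, 0.01 and -0.02 over all genes. Of the 10 genes 2, 0, 1 and 0 were called lower, where the shares of all genes were 1.24%, 1.05%, 1.14% and 2.36%. The called genes, named after their values were seen, were Cadps (-0.37 in vehicle sham, -0.39 in BD10-2 sham) and Ptprn2 (-0.37 in vehicle sham).

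Among 22 genes reported as induced by BDNF-TrkB signalling in neurons, 6, 8, 5 and 9 were called higher and 1, 2, 2 and 2 lower after stimulation, with list medians of 0.11, 0.21, 0.01 and 0.21. Called higher in all 4 were Egr3 (0.33 to 0.42), the signalling inhibitor Spry2 (0.75 to 1.16), the synaptic pentraxin Nptx2 (0.77 to 1.32), the activin gene Inhba (0.98 to 1.76) and Gadd45b (1.15 to 1.51). Egr1, an immediate early transcription factor, fell in all 4 (-0.40 to -0.67), from 351 ± 22 to 267 ± 42 CPM in WT vehicle mice (SD, n = 4 each), and Fosb fell in 3 (-0.85 to -0.97). The list therefore did not move as 1 block. By genotype 2, 1, 1 and 4 of the 22 were called higher and 0, 1, 4 and 0 lower in vehicle sham, vehicle stimulated, BD10-2 sham and BD10-2 stimulated samples. The shares of all genes were 5%, 4.74%, 4.31% and 8.19% higher and 1.24%, 1.05%, 1.14% and 2.36% lower, and a count of 1 among 22 higher is near them. In BD10-2 sham samples the neuropeptide genes Sst (-0.93) and Tac1 (-1.23) and the synaptic scaffold gene Homer1 (-0.53) were lower in T41B than WT mice, and Sst was also lower in vehicle stimulated samples (-1.03). Tac1 rose with stimulation in T41B BD10-2 mice (0.86, SE 0.32, edgeR adjusted p = 0.0495).

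Of the other neurotrophic factors, Lif, Gdnf and Fgf2 rose with stimulation in all 4 comparisons. Of 22 tested genes, 5, 7, 4 and 8 were called higher and 0, 1, 1 and 3 lower after stimulation. Lif, a cytokine of the interleukin-6 family, rose from 2.05 ± 0.34 to 39.4 ± 16.6 CPM in WT vehicle and from 6.03 ± 1.41 to 112 ± 18 CPM in T41B vehicle mice (SD, n = 4 each), and was higher in T41B mice in all 4 genotype comparisons. Gdnf, a ligand of the receptor Ret, rose from 0.0906 to 1.07 CPM in WT vehicle and from 0.241 to 1.33 CPM in T41B vehicle mice, and Fgf2 rose by 0.96 to 1.40 on the log2 scale in all 4. Igf1, also made by microglia, was higher in T41B mice in all 4 genotype comparisons, by 1.04 to 1.74. The neuregulin receptor gene Erbb4 was lower in T41B mice in 3 of 4 comparisons (-0.40 to -0.48) and fell with stimulation in WT BD10-2 mice (-0.50). No gene of the 7 lists was called in any treatment or interaction comparison. The lists were chosen with earlier results of these data known.

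**Figure D5:**
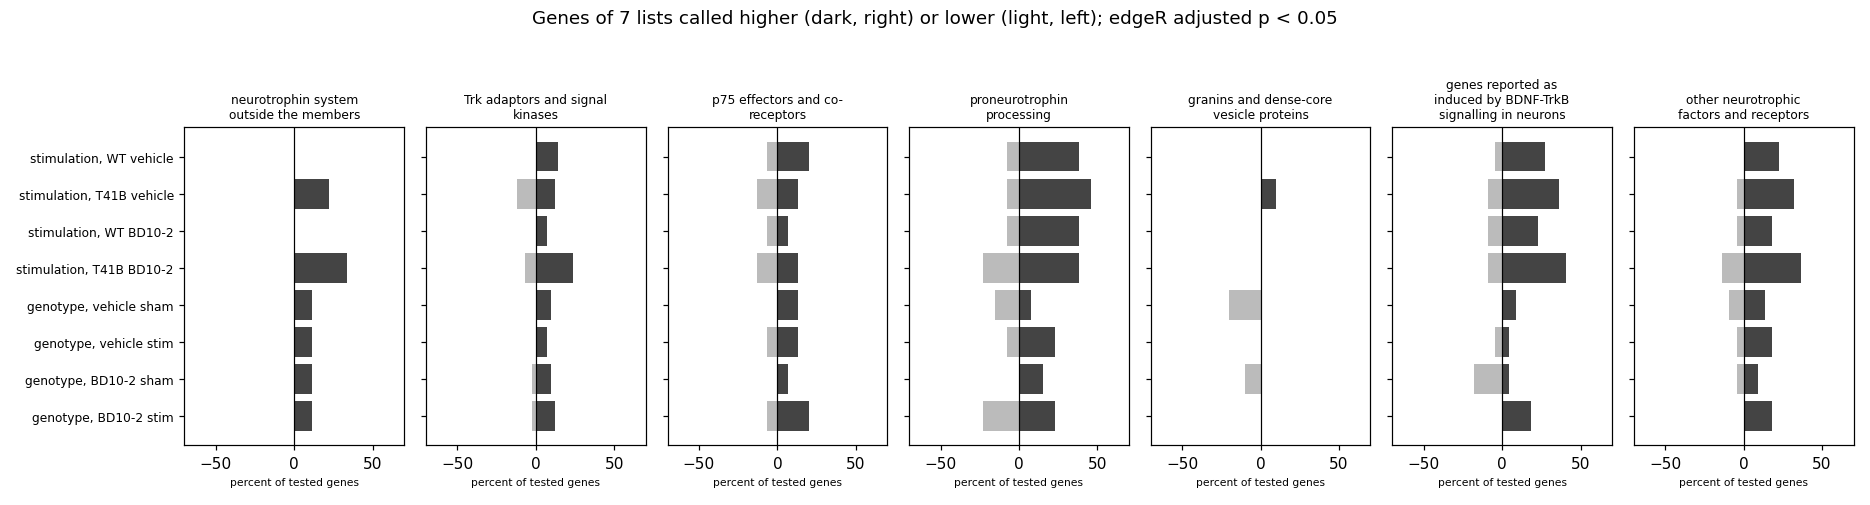
Percent of the tested genes of each of the 7 lists called higher (dark bars, to the right) or lower (light bars, to the left) at an edgeR adjusted p under 0.05, in the 4 stimulation and 4 genotype comparisons (rows). Processing genes and genes reported as induced by BDNF show long bars to the right after stimulation, with 5 or 6 of 13 and 5 to 9 of 22 genes, while granins show 1 gene at most.

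The genes whose levels followed each member most closely over the 32 samples, by Pearson's r of log2(CPM + 1), are given as a description, since samples share mice, libraries share batches and all values share the scaling. Vgf was closest to Lingo1, Mast2 and Iqsec3 (0.91, 0.88 and 0.88), and after subtracting group means to Lingo1, Ube2o and Cbarp (0.96, 0.94 and 0.93). Ntrk3 was closest to the glutamate receptor genes Grin2b and Gria2 (both 0.95) and to 2900027M19Rik (0.94), and after subtraction to Grin2b, Gria2 and Birc6 (0.95, 0.95 and 0.94). Sort1 was closest to Cds2, Nell2 and Slc24a2 (0.93, 0.93 and 0.92), and after subtraction to the sortilin relative Sorl1 (0.92), Gabbr1 (0.90) and Nell2 (0.90).

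Bdnf was closest to secretogranin Scg2 (0.82), Ago2 and Enox1 (both 0.75), and after subtraction to Scg2, Slc7a14 and Plppr5 (0.81, 0.80 and 0.79). Ntf3 was closest to Dgkh, Jph1 and Ahcyl2 (0.84, 0.82 and 0.81), and after subtraction to Egfem1, Dgkh and Mcm6 (0.84, 0.77 and 0.77). Ntrk2 was closest to Kcnn3, Masp1 and Gli3 (0.75, 0.72 and 0.72), and after subtraction to the astrocyte glutamate transporter gene Slc1a3, Adra1a and Slc25a34 (0.76, 0.75 and 0.74). Ngfr was closest to Tkt, Cadm4 and Mid1ip1 (0.66, 0.66 and 0.65), and after subtraction to Mid1ip1, Tkt and Adamtsl1 (0.75, 0.73 and 0.73).

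Against marker sums the members followed different subfields and cell types. Ntf3 followed the dentate granule cell markers (r = 0.72 over 32 samples, 0.67 after subtracting group means) and ran opposite to Vgf (-0.70). Vgf followed CA3 markers (0.74, and 0.74 after subtraction) and the neuronal markers (0.51, and 0.74 after subtraction). It ran opposite to the microglial markers (-0.68, and -0.31 after subtraction) and the dentate markers (-0.63, and -0.53 after subtraction). CA3 markers were themselves lower in T41B sham samples, at 63.5 ± 11.1 against 79.9 ± 10.1 CPM under vehicle (SD, n = 4 each) and 62.3 ± 7.2 (n = 5) against 80.2 ± 1.6 CPM (n = 3) under BD10-2, with 1 of the 3 called lower in each. Their part in the lower Vgf of T41B mice was not tested. Ntrk2 followed the astrocyte markers (0.58, and 0.59 after subtraction) and the thalamus markers (0.65, and 0.58 after subtraction) and ran opposite to the choroid plexus markers (-0.58, and -0.69 after subtraction). Sort1 followed the neuronal markers (0.76, and 0.38 after subtraction) and the CA3 markers (0.71, and 0.47 after subtraction), and ran opposite to the astrocyte markers (-0.69, and -0.17 after subtraction). After subtraction it followed the CA1 markers most closely (0.68, against 0.28 before). Not every marker list is given for each member. Ntrk3 and Sort1 followed each other (0.74).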

How the data were processed

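The authors deposited RSEM expected counts per gene for 36 libraries, which are estimated counts that need not be whole (5.69% of cells hold decimals) and are not scaled between libraries. The submitters' processing notes name cutadapt 1.8.1, STAR 2.7.6a, RSEM 1.3.1, featureCounts 1.6, SAMtools 1.11 and GRCm38.p6 (mm10). The annotation release and the strand setting are not given in the sources used here. Per the labels' protocols, libraries came from 200 ng of total RNA with ribosomal depletion and a stranded kit.

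Counts were rounded, and libraries with the same mouse and stimulation labels were added, which gave 32 samples in 8 groups. Such same-label libraries differed by more than sampling noise (chi-square per degree of freedom 7.44 to 28.9), which for 2 of the 4 pairs was within the range between different mice of the same group, for 1 below it and for 1 above it, and the labels do not say whether they came from the same slice. Symbols were matched for 55154 gene identifiers and not for 267. After filterByExpr (minimum count 10) and TMM scaling, edgeR's quasi-likelihood test (edgeR 4.0.16, R 4.3.3) was fitted with 1 coefficient per group. P-values were adjusted over all 19478 genes, and a gene was called below 0.05. The SE is the log2 fold change divided by the square root of F, and intervals are 95%. The fit was tested on simulated data. Alternatives used DESeq2 1.42.0 and limma 3.58.1.

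Same-numbered samples came from the same mouse, so the numbers pair the samples. Deviations from group means correlated at 0.290 on average within a mouse (14 pairs, 13 of them over 0.1) and at -0.078 between mice of the same genotype and treatment (52 pairs). Named beside the 7 genes were pathway genes called with the same sign in all 4 stimulation or all 4 genotype comparisons, up to 3 called genes of at least 1 CPM with the largest change per comparison and direction, Ntf5, and the 3 closest genes of each member. The members and lists were chosen with earlier results of these data known. Among the lists' genes that did not pass the filter were Ntf5, Plg, Mmp7, Pspn and Gfra3. Some genes of the lists are counted but not reported here by name.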

Additional observations from a re-analysis of the deposited data

Results flagged for a closer look

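In 1 of 48 groups of 4 or 5 samples, 6 for each of the 7 genes and for Thy1, a single sample stood far from the others. Sort1 in the stimulated slice of 1 WT vehicle mouse was at 598 CPM, and the next sample was at 539.9 CPM, a gap of 0.90 of the group's range. Chance gives such a gap in about 1 in 20 groups. The sample was still below the 4 WT vehicle sham samples, the lowest of which was 622 CPM.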

How the results depend on the processing

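The number of members called moved as follows, with no direction of a called result reversed under any alternative. For stimulation in WT vehicle mice (1 called), it was 2 with the mouse as a fixed replicate block, batch as covariate, limma with the mouse as a random replicate block, or DESeq2, and 0 without the filter, with only the groups compared, or with the first of same-label libraries. Over all genes the main fit called 2397, and these alternatives, in that order, 3906, 3242, 4138 and 2687, and 1917, 1581 and 2015. For stimulation in T41B vehicle mice (1 called), it was 3 with the replicate block or batch, 4 with limma's block, and 0 without the filter, with only the groups compared, with the second library, or without the 6 samples high in choroid plexus markers, an alternative chosen after seeing the data. Over all genes the main fit called 4197, and these alternatives, in that order, 5743 and 4888, 6307, and 3342, 2582, 4031 and 1183. For stimulation in T41B BD10-2 mice (0 called), it was 1 with only the groups compared, batch, limma's block, or without those 6 samples. For genotype in vehicle sham samples (0 called) DESeq2 gave 2. For genotype in BD10-2 sham samples (1 called), it was 3 with only the groups compared, 2 with the first library and 0 with batch. Leaving out each mouse gave 0 members in WT vehicle stimulation and 0 to 1 in T41B vehicle stimulation and both sham genotype comparisons. The replicate block changed these calls of members and no others: fixed, it added Sort1 in WT vehicle and Ntrk2 and Vgf in T41B vehicle stimulation, and limma with a random block, which changes the tool too, called the same 3 and Bdnf in both T41B stimulation comparisons. Batch as a covariate was not run for treatment, which it cannot separate. Over all alternatives and members, 1698 values kept their sign and side of the threshold, 122 uncalled values changed sign, 22 passed newly and 20 no longer passed. Ngfr and Ntf3 had the lowest counts of the 7.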
